A study of Drosophila melanogaster with 16 samples.

Results

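Chromosome 4 is the smallest autosome of Drosophila melanogaster, and 108 of its genes are described here, of 17753 genes counted. They were taken by their dm6 position and a total of at least 20 counts over 16 libraries. 2 more chromosome 4 genes lay under that total, and 1 ribosomal protein gene was not analysed here. The 108 comprised 78 protein-coding genes, 24 noncoding RNA genes, 5 pseudogenes and 1 small nucleolar RNA gene. A filter on low counts left 102 of them in the tests, among 12398 genes, and the 6 removed were all noncoding.

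The chromosome is known as a largely heterochromatic one that is nevertheless transcribed. Most of it is bound by heterochromatin protein 1 and carries the histone methyl mark of silent chromatin, while its active genes are also bound by POF, a protein particular to this chromosome. In flies the methyltransferase Eggless is known to place most of that mark on chromosome 4, and Su(var)3-9 acts mainly near centromeres. Many of the genes encode developmental regulators and synaptic proteins, and they are long and interspersed with transposable elements.

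RNA came from 4 genotypes at 2 stages, with 2 libraries in each of 8 groups. Su113 embryos (wm4h;JasperSu113/JasperSu113) and Su140 embryos (wm4h;JasperSu140/JasperSu140) were homozygous for an allele of Jasper, which encodes a chromatin cofactor with a PWWP domain. Su(var)3-9 embryos carried wm4h and were homozygous for Su(var)3-906, an allele of the heterochromatin methyltransferase gene, and the control was wm4h;+/+. All 4 genotypes carry wm4h, an X inversion that brings the eye pigment gene white next to heterochromatin. The stages were St7-8, during gastrulation and germband extension, and NC14, the last nuclear cycle before gastrulation. The labels give the same egg laying of 1 h and aging of 2 h at 25 °C for all groups, both stages included. Each library was a pool of 50 hand-sorted whole embryos, so fewer cells that transcribe a gene and less RNA per cell cannot be told apart, and maternal and zygotic RNA are measured together. Nothing in the labels ties the replicates to separate crosses, so p-values refer to the variation among pools, which may be partly technical.

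Total counts were 43466130 to 92790237 per library, and 3 counts corresponded to 0.0299 to 0.0573 CPM, the counts scaled to a common library size of 1000000. The stage labels were set against marker genes, and some libraries stood apart. wm4h St7-8 replicate 2 had 3951 CPM of slam, a cellularization gene of NC14, against 1269 in replicate 1. The summed level of 10 later zygotic genes was 451 CPM in that library and 1033 in replicate 1, and it was 550 and 505 in wm4h at NC14. Su(var)3-9 St7-8 libraries were at the other end, with 31.9 and 32.3 CPM of slam and sums of 1695 and 1941. Su140 NC14 libraries had the lowest sums, 95.8 and 110 CPM. The summed level of 5 late embryo markers was 221 and 892 CPM in Su113 at St7-8 and 847 CPM in Su140 St7-8 replicate 2. In the other 13 libraries it was 6.22 to 52.3 CPM. Ovary and adult markers summed to at most 1.36 CPM in any library. Jasper RNA was 98.9 to 170 CPM and Su(var)3-9 RNA 62.8 to 167 CPM over all libraries, which does not test the lesions.

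At NC14, chromosome 4 genes took 1.72% ± 0.0239 of the counts of Su113, 1.73% ± 0.0583 of those of Su140 and 1.74% ± 0.0358 of those of Su(var)3-9, against 1.57% ± 0.0551 in wm4h (SD, n = 2). At St7-8 the shares were 1.70% ± 0.086, 1.68% ± 0.0719 and 1.89% ± 0.124 in the same 3 mutants, against 1.59% ± 0.0359 in wm4h. Every mutant library lay above both wm4h libraries of its stage. At NC14 the same held for arm 2L, with 17.3 to 17.9% in the mutant libraries and 17 and 17.1% in wm4h. No test was made on these shares. The 3 most abundant members took 16.7 to 24.1% of the chromosome's counts in a library.

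Levels within the chromosome spanned more than 4 orders of magnitude, with means over all libraries of 0.0373 to 1616 CPM. The mean over all libraries was at least 100 CPM for 36 members, 10 to 100 CPM for 23, 1 to 10 CPM for 27 and under 1 CPM for 22. Only 2 protein-coding members lay under 1 CPM, and the 30 noncoding genes and pseudogenes reached at most 11.3 CPM. Per kilobase of exon, gw stood highest at NC14, at 354 ± 17.1 CPM in Su113, 362 ± 12.1 in Su140 and 308 ± 47.9 in wm4h. At NC14 in Su(var)3-9, gw had 261 ± 32.5 CPM per kilobase, beside 265 ± 16.4 for ATPsynbeta, which overlap within their spread. gw encodes GW182, which carries out silencing by microRNAs, and ATPsynbeta a subunit of the mitochondrial ATP synthase. MED26 (a Mediator subunit), Rad23 (a proteasome shuttle and DNA repair factor), and pho (a DNA-binding Polycomb group protein) were also among the 10 highest members per kilobase in all 4 genotypes at NC14.

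The median protein-coding member had 19.9 CPM per kilobase in wm4h at NC14 and 18.5 at St7-8. On the other arms, with the same count minimum, the medians were 4.15 to 5.09 CPM per kilobase at NC14. Protein-coding members spanned a median of 10444 bp, against 2338 to 2932 bp elsewhere, and 83.3% of the spans held an annotated transposable element, against 6.34 to 9.13%. The density was 37.6 annotated elements per 100 kb of gene span on chromosome 4 and 1.58 to 4.01 on the other arms. These are descriptions of 1 chromosome beside 5 arms, with no test.

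In Su140 embryos at NC14, 14 of the 102 members changed, and most of them fell. mav, mGluR, Asator and dati had the smallest adjusted p. The 11 that fell were 1.67 to 6.18-fold lower than in wm4h. 3 members rose and 11 fell, against 3.02% of all genes tested that rose and 6.53% that fell. The median log2 fold change was -0.23 over the members and -0.03 over all genes. Among genes with a mean of at least 10 CPM, a minimum set after the data were seen, 16.9% of 59 members and 13.6% of 6000 genes changed. With DESeq2 size factors in place of TMM, 5 members rose and 10 fell.

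**Figure D1:**
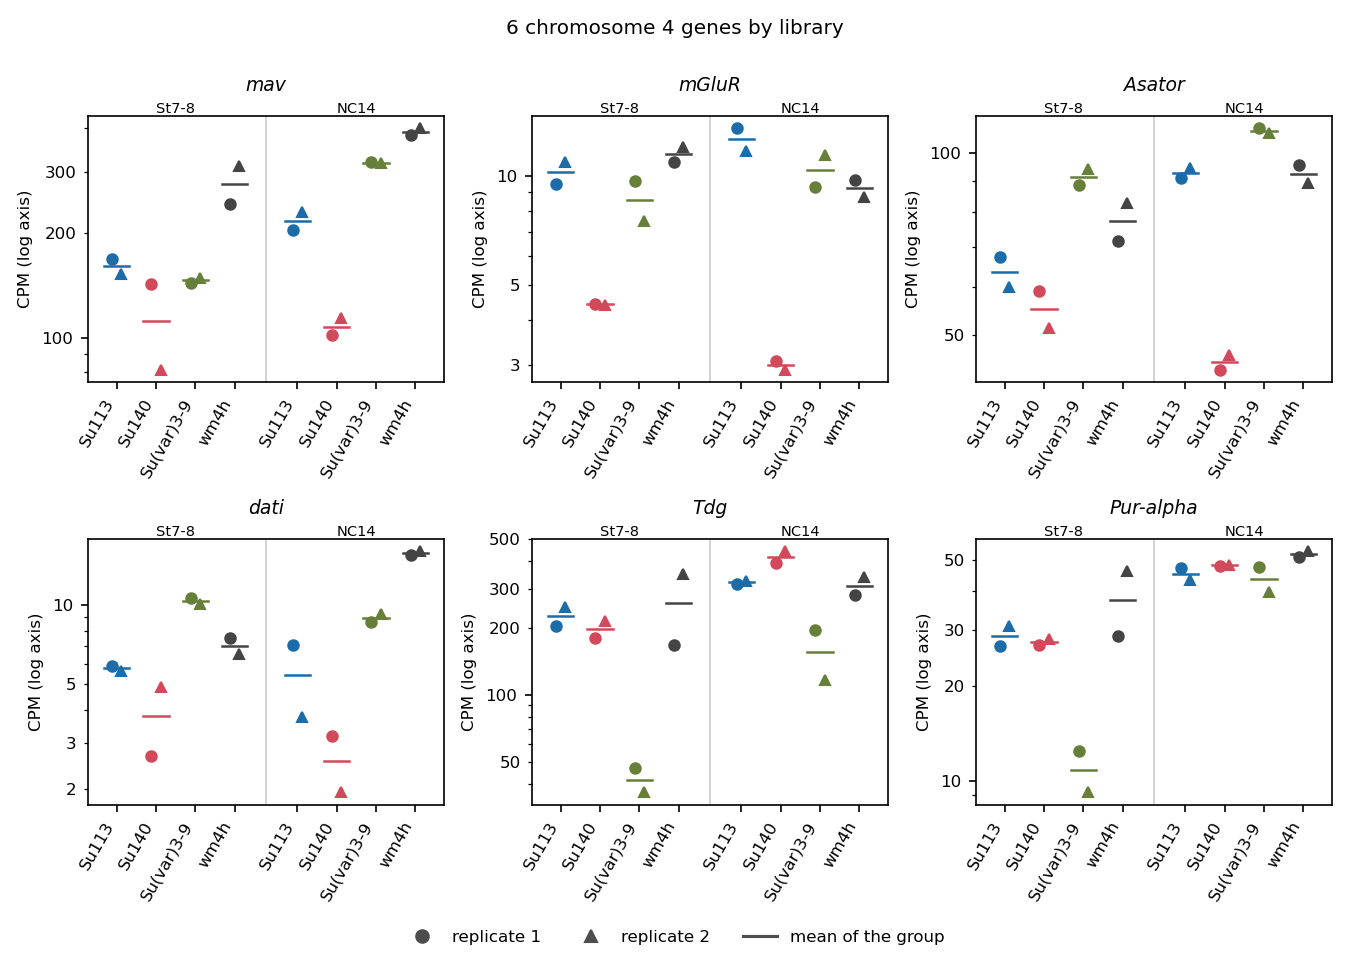
CPM (log axis) of 6 chromosome 4 genes in the 16 libraries, by genotype, with St7-8 left of NC14 in each panel. Circles and triangles are replicates 1 and 2 and bars are group means; mav and mGluR are lowest in Su140 at both stages, and Tdg and Pur-alpha are lowest in Su(var)3-9 at St7-8.

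mav (maverick, FBgn0039914, chromosome 4 from 623219 to 626031) encodes a ligand of the TGF-beta family. It had 102 and 114 CPM in Su140 at NC14, against 382 and 400 CPM in wm4h. The groups lay far apart, and the log2 fold change was -1.86 ± 0.22 (SE; adjusted p = 0.000992 by edgeR's quasi-likelihood test with Benjamini-Hochberg adjustment over all genes tested, as for each adjusted p here). Su113 averaged 218 ± 17.9 CPM, between them, and Su(var)3-9 had 321 and 317 CPM. The other TGF-beta ligands, myo (myoglianin) and Actbeta (activin-beta), did not pass the test, and Actbeta was at 0.435 to 1.12 CPM at NC14.

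Receptor genes were next. mGluR (FBgn0019985, from 936819 to 949441), the metabotropic glutamate receptor, had 3.08 and 2.91 CPM in Su140 and 9.73 and 8.71 CPM in wm4h. These did not overlap, with a log2 fold change of -1.62 ± 0.23 (adjusted p = 0.0028). CG11155, a glutamate-gated channel of the kainate type, also fell, by 1.52 on the log2 scale, and so did Cals (calsyntenin, a cadherin), by 0.74. PlexA, a plexin receptor of axon guidance, rose, to 1596 and 1583 CPM in Su140, against 1175 and 1178 in wm4h (0.43 ± 0.12, adjusted p = 0.041). Of the 10 genes listed as receptors, guidance and adhesion, 1 rose and 3 fell, with a median of -0.01. Of 9 synapse and transport genes, Cadps, which primes dense-core vesicles for release, was the one that changed (-1.45 ± 0.27, adjusted p = 0.0105).

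Of 19 DNA-binding factors and transcription cofactors, 1 rose and 4 fell, with a median of -0.42. dati (a zinc finger protein, from 375640 to 395605) had 3.18 and 1.94 CPM in Su140, against 15.6 and 16.1 in wm4h (-2.63 ± 0.36, adjusted p = 0.00307). zfh2 (a zinc finger homeodomain protein) had 50.2 and 52 CPM in Su140, against 176 and 155 in wm4h (-1.69 ± 0.39, adjusted p = 0.0243). sv (a Pax family protein) fell by 1.61 and fd102C (a forkhead protein) by 1.37. fuss, a corepressor of the Ski and Sno family, rose to 28.3 and 29.7 CPM in Su140, against 16.1 and 13.6 in wm4h (0.97 ± 0.22, adjusted p = 0.0225). The abundant members of the list, such as MED26, pho, lgs, Hcf and Taf3, did not pass the test.

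Asator (FBgn0039908, from 469409 to 488994), a kinase associated with the mitotic spindle, had 43.8 and 46.3 CPM in Su140, against 95.8 and 89.3 in wm4h (-1.04 ± 0.14, adjusted p = 0.00205). It was the one changed gene of 11 in metabolism, lipid and housekeeping. None of 5 RNA and translation genes and neither muscle and cytoskeleton gene passed in this comparison by edgeR. CG32017 rose (1.72 ± 0.45, adjusted p = 0.0379) and asRNA:CR44029 fell (-1.16 ± 0.24, adjusted p = 0.0153). The calls of mav, Asator and mGluR were the ones that held with each library left out in turn, and the 14 calls numbered 5 and 3 without Su140 replicate 1 and 2 and 4 and 6 without wm4h replicate 1 and 2. With the mean log2 level of the 10 later zygotic genes as a covariate, 0 of the 14 calls remained, and zfh2, sv and fd102C turned to 0.59, 0.08 and 0.21. mav, mGluR and Asator had -1.92, -1.89 and -1.03 there (adjusted p = 0.297, 0.297 and 0.338). The later zygotic genes summed to 95.8 and 110 CPM in Su140, against 550 and 505 in wm4h, and the part of that difference in the calls was not tested. The covariate itself was 2.67 and 2.89 in Su140 and 5.16 and 5.29 in wm4h. It thus separated the groups, so the fit cannot tell its part from that of genotype.

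In Su113 and Su(var)3-9 embryos at NC14, no member passed the test by edgeR. In Su113, 0.936% of all genes tested passed by edgeR. At an unadjusted p under 0.05 there were 11 members, or 10.8%, against 14.2% of all genes, and DESeq2 called 5 members, or 4.9%, against 6.24% of all genes. With DESeq2 size factors 1 member rose and 1 fell. The nearest to the threshold were fuss, Sox102F and dati. fuss had 32.5 and 28.7 CPM, close to its level in Su140 (1.04 ± 0.22, adjusted p = 0.0547). Sox102F, a Sox family factor, had 40.2 and 37.8 CPM in Su113, against 20.1 and 22.2 in wm4h (0.88 ± 0.20, adjusted p = 0.0672), and dati had 7.05 and 3.77 CPM (-1.55 ± 0.36, adjusted p = 0.08). For Su(var)3-9, 0.331% of all genes passed by edgeR. It had 13 members with an unadjusted p under 0.05, or 12.7%, against 14.4% of all genes, and 4 called by DESeq2, or 3.92%, against 6.11%. Tdg, Cals and ATPsynbeta had the smallest adjusted p there, 0.193 to 0.224. The median log2 fold changes were 0.14 and 0.11 in these mutants, against -0.00 and 0.00 over all genes.

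The Jasper alleles themselves differed on this chromosome at NC14. 10 members were higher in Su113 than in Su140 and 0 lower, against 2.36% and 0.726% of all genes. DESeq2 called 21 higher and 3 lower, in all 23.5% of the members and 14.2% of all genes. An unadjusted p under 0.05 was reached by 32 members, or 31.4%, against 22.2% of all genes. mGluR had 13.5 and 11.7 CPM in Su113, against 3.08 and 2.91 in Su140, a log2 difference of 2.07 ± 0.23 (adjusted p = 0.00174). This was the 1 call that held with each library left out and in every other alternative run, the later zygotic covariate included (2.21, adjusted p = 0.0198). The other calls were Asator (1.04 ± 0.14), zfh2 (2.12 ± 0.39), Cadps (1.40 ± 0.27), Sox102F, NfI (2.28 ± 0.47), mav (1.01 ± 0.22), sv (1.71 ± 0.37), Cals (0.73 ± 0.16) and CG11155 (1.72 ± 0.41). NfI belongs to a family of DNA-binding factors. The list of DNA-binding factors and cofactors had 4 of 19 higher and a median of 0.88, while the 5 RNA and translation genes had 0 calls and a median of -0.12. Without Su113 replicate 2 there was 1 call, and without any other of the 4 libraries there were 2. With the later zygotic covariate 2 of the 10 calls passed. That covariate was 3.99 and 4.09 in Su113 and 2.67 and 2.89 in Su140. It separated the alleles, so the fit cannot tell its part from that of the allele. The later zygotic genes summed to 274 and 309 CPM in Su113 and to 95.8 and 110 CPM in Su140, and the part of that difference in the calls was not tested.

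**Figure D2:**
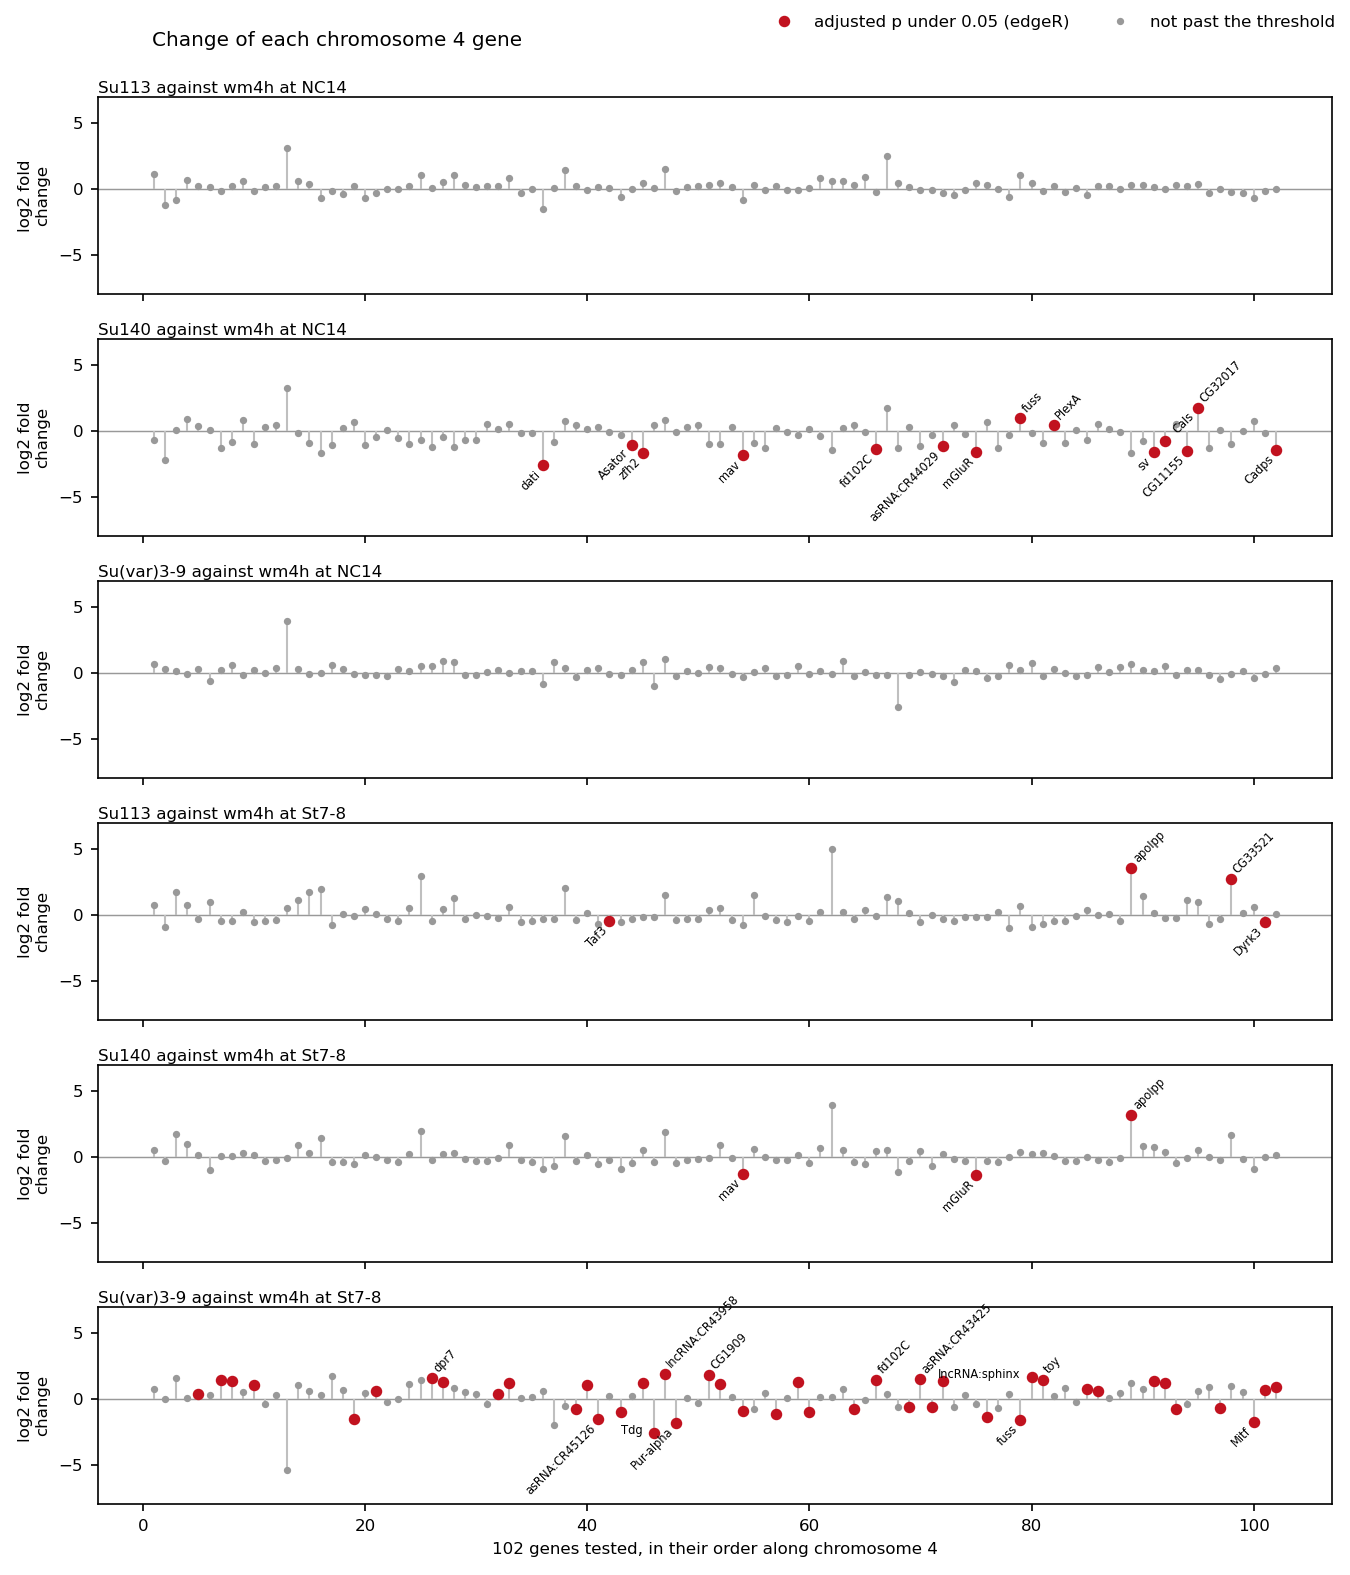
Log2 fold change against wm4h of the 102 members tested, in their order along chromosome 4, in 6 mutant comparisons. Red points are past the threshold, with 43 of them along the whole chromosome for Su(var)3-9 at St7-8 and 14 for Su140 at NC14.

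At St7-8, Su113 and Su140 embryos had few changed members. In Su113, 2 rose and 2 fell, against 1.85% and 1% of all genes. apolpp, the precursor of the main haemolymph lipoprotein, had 748 and 708 CPM in Su113, against 82.6 and 43.5 in wm4h (3.53 ± 0.48, adjusted p = 0.00633). CG33521 had 5.04 and 7.93 CPM in Su113, against 1.2 and 0.755 in wm4h (2.73 ± 0.54, adjusted p = 0.0284). Dyrk3 (a protein kinase) and Taf3 (a TFIID subunit) fell by 0.56 and 0.48, and with DESeq2 size factors 2 members rose and 0 fell. In Su140, 1 member rose and 2 fell, against 0.379% and 0.774% of all genes. These were apolpp, at 348 and 797 CPM (3.18 ± 0.48, adjusted p = 0.0163), mGluR, at 4.43 and 4.39 CPM against 10.9 and 12 in wm4h (-1.37 ± 0.23, adjusted p = 0.0169), and mav, at 143 and 81.2 CPM against 243 and 311 in wm4h (-1.31 ± 0.22, adjusted p = 0.0175). The late embryo markers summed to 221 and 892 CPM in Su113 and to 48 and 847 CPM in Su140, against 35.8 and 14.5 CPM in wm4h. With those markers as a covariate, chosen after the data were seen, 0 of the calls passed in Su113 and 1 in Su140. The covariate was at least 3.34 in Su113 and at most 1.32 in wm4h. For Su113 the fit thus cannot tell its part from that of genotype. None of these 7 calls remained without wm4h St7-8 replicate 2. The fold changes of apolpp were then 3.13 and 2.79, and those of mGluR and mav in Su140 -1.31 and -1.12. The number of calls in both mutants also changed when any other library of the comparison was left out.

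Between the alleles at St7-8, 2 members were higher in Su113 and 2 lower, against 1.85% and 0.548% of all genes. mGluR had 9.49 and 10.9 CPM in Su113, against 4.43 and 4.39 in Su140 (1.21 ± 0.23, adjusted p = 0.0204). Sox102F was also higher (0.88 ± 0.20, adjusted p = 0.0403), and Dyrk3 (-0.56 ± 0.12) and PlexA (-0.54 ± 0.12) were lower. None of these calls held with each library left out. The late embryo markers of these Su113 libraries summed to 221 and 892 CPM, and those of the Su140 libraries to 48 and 847.

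In Su(var)3-9 embryos at St7-8, 43 of 102 members changed. The patterning genes toy, ci and pan rose, the RNA regulator gw and the TGF-beta ligands mav and myo fell, and Tdg and Pur-alpha fell furthest. In all, 26 members rose and 17 fell, against 8.94% and 15.9% of all genes. The median log2 fold change was 0.36 over the members and 0.04 over all genes, and on the other arms the medians were -0.10 to 0.12. As a share of the genes tested, 25.5% of the members rose, beside 6.16 to 9.52% on the other arms, while 16.7% fell, beside 14.1 to 20.9%. Among genes with a mean of at least 10 CPM, 59.3% of 59 members and 40.4% of 6000 genes changed.

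Tdg (FBgn0026869, from 538332 to 557854), a thymine DNA glycosylase, had 46.8 and 36.5 CPM in Su(var)3-9, against 167 and 348 in wm4h. Both mutant libraries lay far below both wm4h libraries (-2.63 ± 0.31, adjusted p = 0.000443). Pur-alpha (FBgn0022361, from 558016 to 567257), its neighbour, binds single-stranded nucleic acid and had 12.4 and 9.19 CPM in Su(var)3-9, against 28.8 and 46.4 in wm4h (-1.80 ± 0.22, adjusted p = 0.00048). Both calls held in each alternative run, with fold changes of -3.07 to -2.01 for Tdg and -2.11 to -1.42 for Pur-alpha when a library was left out. With the later zygotic covariate they were -1.71 (adjusted p = 0.0447) and -1.22 (adjusted p = 0.0479). Tdg also had 195 and 117 CPM in Su(var)3-9 at NC14, against 281 and 337 in wm4h. That did not pass by edgeR (-0.99 ± 0.31, adjusted p = 0.193), while DESeq2 called it lower (adjusted p = 0.0345 by DESeq2).

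Of the 19 DNA-binding factors and cofactors, 7 rose and 6 fell. Those that rose were toy (a Pax6 gene of the eye and head), ci (the transcription factor of Hedgehog signalling), fd102C, sv, pan (the TCF factor of Wnt signalling), zfh2 and onecut. toy had 60.8 and 71.1 CPM in Su(var)3-9, against 31.9 and 16.1 in wm4h (1.46 ± 0.34, adjusted p = 0.0113). ci had 1939 and 2105 CPM in Su(var)3-9, against 994 and 582 in wm4h (1.36 ± 0.34, adjusted p = 0.0141). Those that fell were Pur-alpha, fuss, MED26, pho, lgs (a Wnt cofactor) and Mitf (a factor of lysosomal genes). fuss had 4.72 and 4.88 CPM in Su(var)3-9, against 10.7 and 17.8 in wm4h (-1.57 ± 0.22, adjusted p = 0.000871).

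Of 3 TGF-beta ligands, mav (144 and 149 CPM in Su(var)3-9, against 243 and 311 in wm4h) and myo (82.5 and 73.2 CPM, against 121 and 188) fell, by 0.91 and 0.99. Of 5 RNA and translation genes, gw, 4E-T (a translational repressor that binds eIF4E) and Gyf (a partner of translational repression) fell and 0 rose. gw had 691 and 765 CPM in Su(var)3-9, against 1283 and 1992 in wm4h (-1.17 ± 0.19, adjusted p = 0.00172). eIF4G1, the scaffold of translation initiation, had 1003 and 1080 CPM in Su(var)3-9, against 810 and 862 in wm4h, and did not pass.

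Of 10 receptor, guidance and adhesion genes, Cals and PlexB rose and 0 fell. Cals had 347 and 339 CPM in Su(var)3-9, against 162 and 132 in wm4h (1.22 ± 0.16, adjusted p = 0.000656). Of 9 synapse and transport genes, Cadps and Zip102B (a zinc transporter) rose and unc-13 (which primes synaptic vesicles) fell. Of 11 metabolic and housekeeping genes, Dyrk3 and ATPsynbeta rose, and Tdg and Arf4 fell. CaMKI (a calmodulin-dependent kinase, 1.04 ± 0.18) and CG11360 (1.30 ± 0.21) also rose. dpr7, a cell surface protein of the immunoglobulin superfamily, had 19.3 and 20.5 CPM in Su(var)3-9, against 8.66 and 4.56 in wm4h (1.59 ± 0.36), and CG1909 had 16.5 and 14.7 CPM, against 6.08 and 2.98 (1.79 ± 0.37). Rnf11 (1.19 ± 0.25) and CG31998 (0.64 ± 0.15) were higher as well. Of the chromosome's noncoding genes, asRNA:CR44029, asRNA:CR43425, lncRNA:sphinx, lncRNA:CR44440 and lncRNA:CR43958 rose and asRNA:CR45126 fell.

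**Figure D3:**
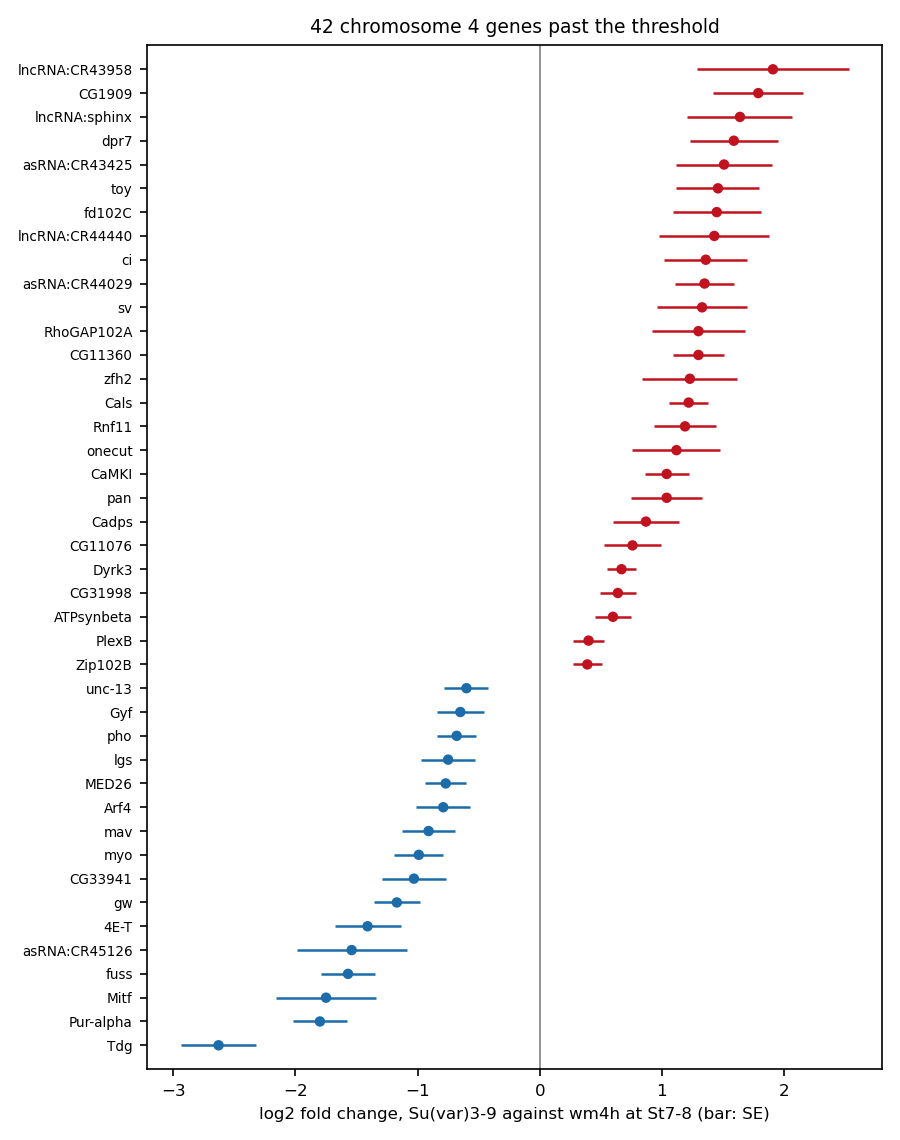
Log2 fold change with SE of 42 of the 43 members past the threshold in Su(var)3-9 against wm4h at St7-8. 26 lie above 0, up to 1.91 for lncRNA:CR43958, and 16 below, down to -2.63 for Tdg.

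The 43 calls numbered 11 without wm4h St7-8 replicate 2, 21 and 19 without Su(var)3-9 replicate 1 and 2, 15 in a fit to the St7-8 libraries alone, and 2 with the later zygotic covariate. The summed later zygotic genes were 1695 and 1941 CPM in these Su(var)3-9 libraries and 1033 and 451 in wm4h, and the part of that difference in the calls was not tested. The covariate was 7.21 and 7.37 in Su(var)3-9 and 6.36 and 5.22 in wm4h. It separated the groups, so the fit cannot tell its part from that of genotype. Among the calls that held with each library left out were Tdg, Pur-alpha, fuss, gw, 4E-T, Cals, CG11360, CaMKI, Dyrk3 and asRNA:CR44029. zfh2 turned to -0.08 with the covariate.

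Between stages in wm4h, 0 of 102 members passed by edgeR, as did 0% of all genes tested. 5 members had an unadjusted p under 0.05, or 4.9%, against 11.3% of all genes, and DESeq2 called 4, all lower, or 3.92%, against 3.39%. The smallest adjusted p were those of Crk, dati and pho, all 0.324. wm4h St7-8 replicate 2 had a later zygotic sum of 451 CPM, beside 1033 in replicate 1 and 550 and 505 at NC14, and without that library 0 members passed as well. In Su113, 6 members rose at St7-8 and 22 fell, against 12.1% and 9.67% of all genes, and with DESeq2 size factors 9 rose and 16 fell. In Su140, 23 rose and 23 fell, against 17.6% and 16% of all genes. In Su(var)3-9, 12 rose and 17 fell, against 10% and 12.8% of all genes. The median log2 fold changes of the members were -0.30, 0.12 and 0.13 in these mutants, beside -0.03, 0.07 and 0.05 over all genes, and -0.04 beside 0.08 in wm4h. With DESeq2 size factors the median in Su113 was -0.14 beside 0.13. The 28 calls in Su113 numbered 0 and 1 without its NC14 replicate 1 and 2, and 1 without its St7-8 replicate 2. In Su140 the 46 numbered 7 and 8 without NC14 replicate 1 and 2, and 27 and 10 without St7-8 replicate 1 and 2. The 29 of Su(var)3-9 numbered 9 without NC14 replicate 1, and 16 and 19 without St7-8 replicate 1 and 2. 9 of the 29 held with each library left out and in every other alternative run, namely CaMKI, Cals, toy, Tdg, Pur-alpha, mav, gw, myo and fuss.

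**Figure D4:**
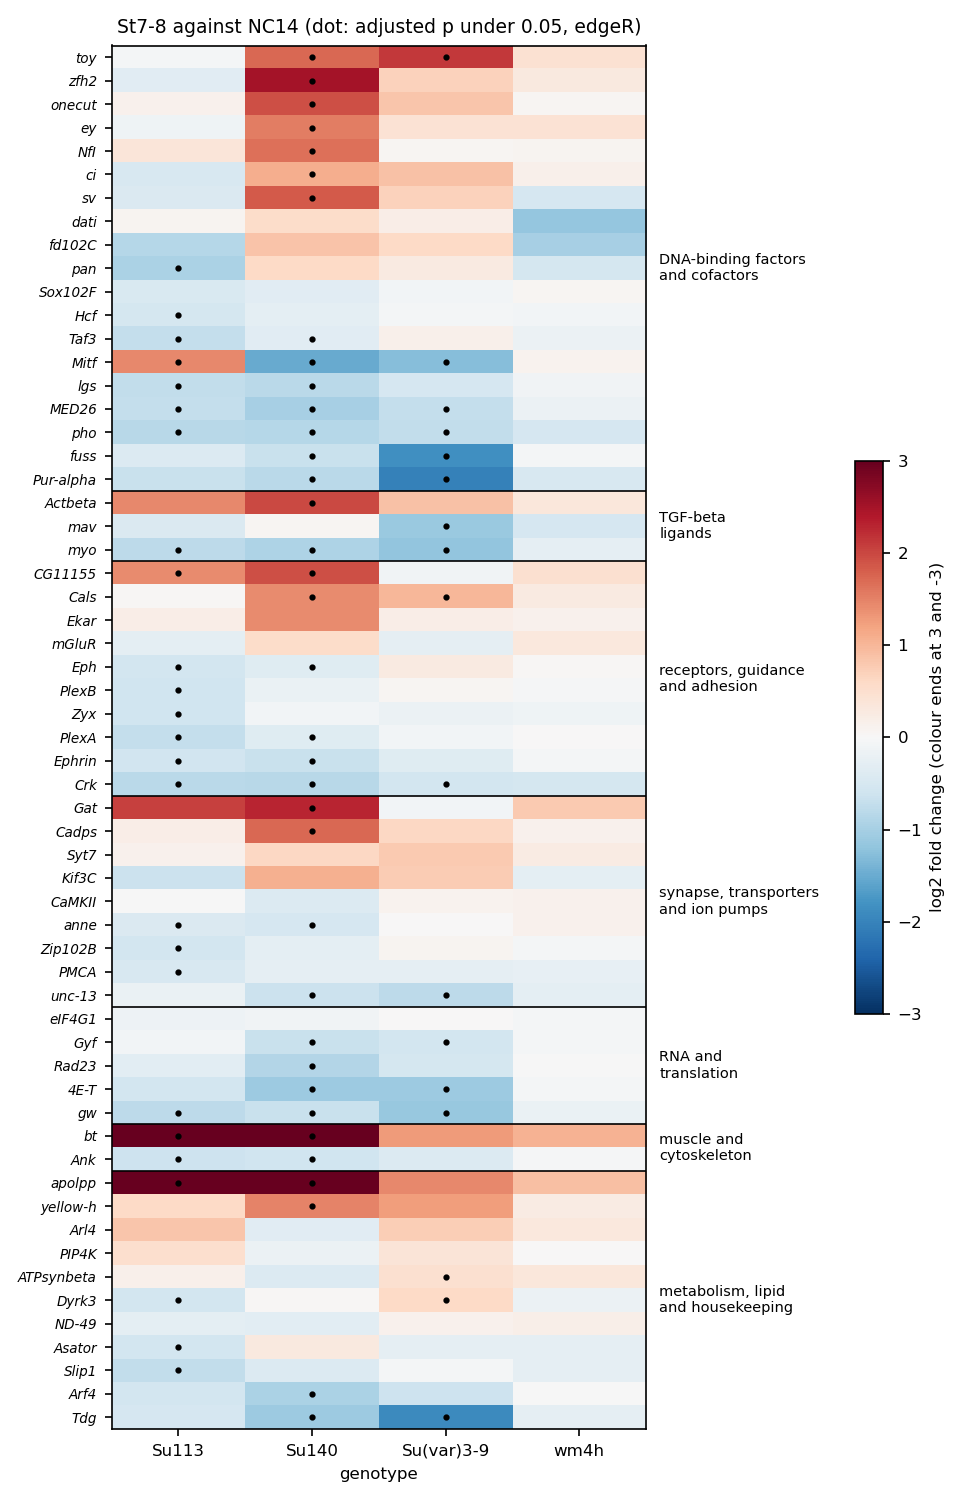
Log2 fold change of St7-8 against NC14 in each genotype for 59 chromosome 4 genes, grouped by role. Dots mark an adjusted p under 0.05, which stand in each mutant and in no wm4h cell, and the colour scale ends at 3 and -3, which bt and apolpp exceed in Su113 and Su140.

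Abundant regulators were among those that fell. Of the 102 members, 5 fell in all 3 mutants, or 4.9%, against 2.41% of all genes tested. These were MED26, pho, Crk (an adaptor of receptor signalling), gw and myo. The share of 2.41% is not matched for level. Among genes with a mean of at least 10 CPM, 17.5%, 30.9% and 22.9% of 6000 fell in Su113, Su140 and Su(var)3-9. Of the 59 members at that level, 21, 23 and 15 fell. gw had 1309 and 1227 CPM at St7-8 in Su113, against 2251 and 2103 at NC14, a log2 fold change of -0.78 ± 0.19 (adjusted p = 0.0198). In Su140 gw had 1489 and 1306 CPM at St7-8, against 2171 and 2276 at NC14 (-0.67 ± 0.19, adjusted p = 0.0237). Su(var)3-9 embryos had 691 and 765 CPM at St7-8, against 1746 and 1464 at NC14 (-1.14 ± 0.19, adjusted p = 0.00252). wm4h had 1283 and 1992 CPM at St7-8, against 1683 and 2099 at NC14, and its groups overlapped.

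Of the 19 DNA-binding factors and cofactors, 7 rose in Su140, namely zfh2, onecut, toy, sv, ey, NfI and ci, and 7 fell, namely MED26, pho, Mitf, Pur-alpha, lgs, fuss and Taf3. The list had 1 higher and 6 lower in Su113, and 1 higher and 5 lower in Su(var)3-9. zfh2 had 310 and 265 CPM at St7-8 in Su140, against 50.2 and 52 at NC14 (2.49 ± 0.39, adjusted p = 0.00301). toy rose in Su(var)3-9, to 60.8 and 71.1 CPM at St7-8, against 12.8 and 17.4 at NC14 (2.13 ± 0.34, adjusted p = 0.00247), where Pur-alpha (-2.02 ± 0.22), fuss (-1.85 ± 0.22) and Tdg (-1.90 ± 0.31) fell. Mitf rose in Su113 (1.44 ± 0.41) and fell in Su140 (-1.52 ± 0.41) and in Su(var)3-9 (-1.28 ± 0.41), with adjusted p of 0.0206 to 0.0453. It had 46.8 and 116 CPM in Su113 at St7-8, so most of its rise lay in the second library. In Su113, 6 of 10 receptor, guidance and adhesion genes fell, among them PlexA, PlexB, Eph and Ephrin, by 0.54 to 0.72, and CG11155 rose by 1.42 (adjusted p = 0.0337).

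A set of members followed the late embryo markers from library to library. bt, which encodes the giant muscle protein projectin, had 134 and 630 CPM in Su113 at St7-8 and 8.02 and 344 CPM in Su140 at St7-8. At St7-8 in Su(var)3-9 and wm4h it had 5.01 to 18.3 CPM, and at NC14 it had 1.72 to 9.75 CPM in all 8 libraries. Mhc, the muscle myosin, had 86.8 and 447 CPM in the same Su113 libraries and 0.335 and 412 CPM in the same Su140 libraries. bt rose between stages in Su113 (5.49 ± 1.11, adjusted p = 0.0194) as well as in Su140, by 6.42 ± 1.15 (adjusted p = 0.0101). CG33978, CG1674, Gat (a GABA transporter) and CG33521 were also highest in Su113 St7-8 replicate 2, the library with the highest marker sum. With the mean log2 level of the late embryo markers as a covariate, chosen after the data were seen, 1 of the 46 calls in Su140 and 1 of the 28 in Su113 remained. That covariate was at most 0.07 at NC14 and at least 3.34 at St7-8 in Su113. In Su140 it was at most -2.10 at NC14 and at least 0.71 at St7-8. It separated the stages in both mutants, so the fit cannot tell its part from that of stage. bt, CG33978, CG1674 and Gat turned to -0.08, -0.18, -0.29 and -0.30 in Su140. These genes followed the same markers from library to library, so their turn adds no separate evidence.

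**Figure D5:**
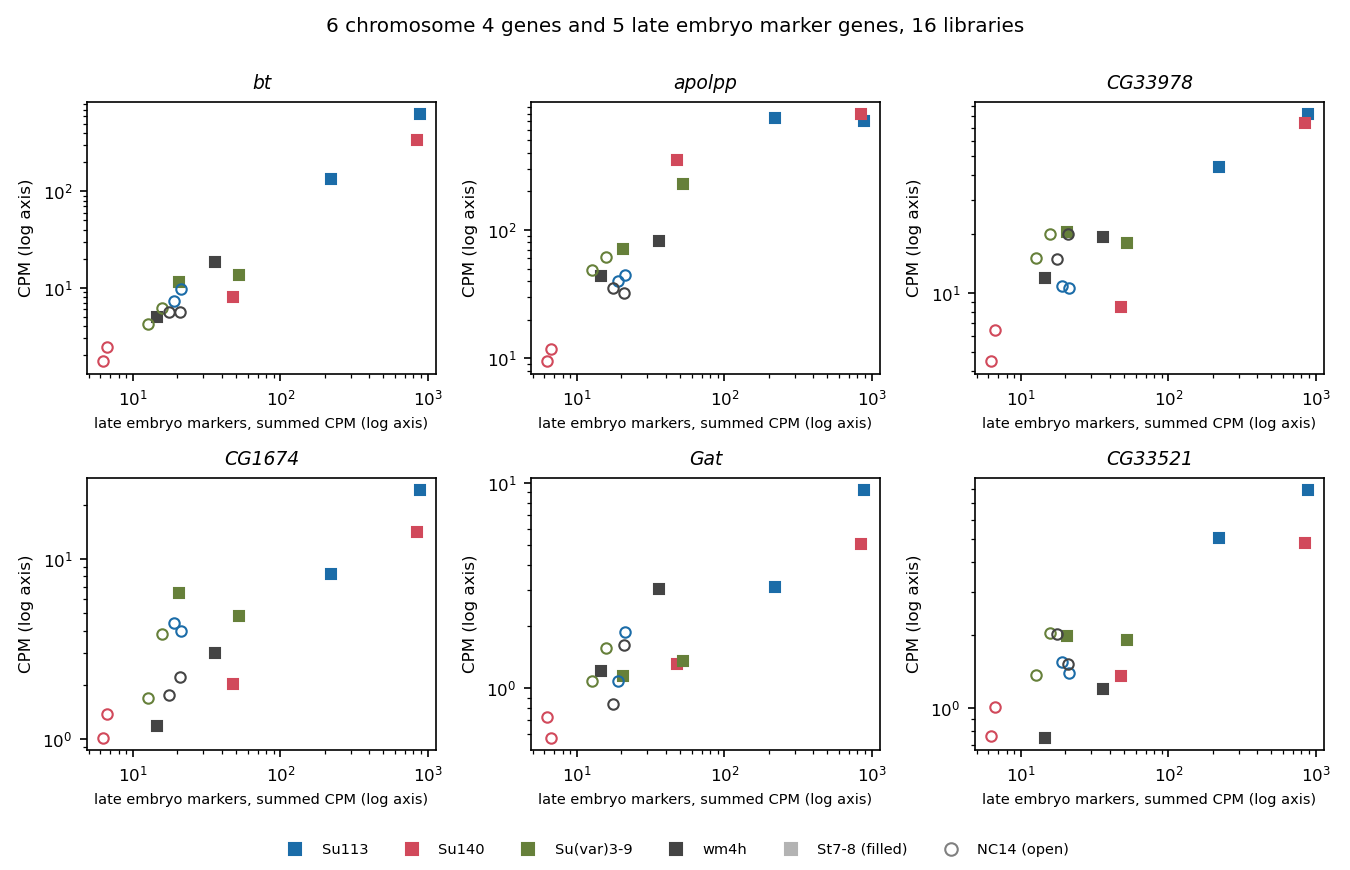
CPM of 6 chromosome 4 genes (log axis) against the summed level of 5 late embryo marker genes (log axis) in 16 libraries. Filled squares are St7-8, open circles are NC14 and colours are genotypes; bt and CG33978 are high in the 3 libraries with marker sums of 221 CPM or more, and apolpp is also high at 348 CPM in Su140 St7-8 replicate 1, where the sum is 48 CPM.

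apolpp was the call that remained in Su140 under every alternative run. It had 348 and 797 CPM at St7-8 in Su140, against 11.7 and 9.43 at NC14 (5.76 ± 0.48, adjusted p = 0.000746). In Su113 it had 748 and 708 CPM at St7-8, against 39.8 and 44.8 at NC14 (4.11 ± 0.48, adjusted p = 0.00244). Its levels in Su(var)3-9 were 226 and 70.8 CPM at St7-8 and 48.3 and 62 at NC14, and in wm4h they were 82.6 and 43.5 CPM at St7-8 and 35.5 and 32.3 at NC14, neither of which passed. apolpp shares 96 exon bases with Zyx on the opposite strand.

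The interaction of genotype and stage asks whether a mutant's difference from wm4h changed between the stages. In Su113 no member passed by edgeR, with 0.0887% of all genes called. 20 members had an unadjusted p under 0.05, or 19.6%, against 17.8% of all genes, and DESeq2 called 5, or 4.9%, against 6.31%. In Su140, apolpp was the 1 call, with a larger excess at St7-8 (4.86 ± 0.68, adjusted p = 0.0363), against 0.242% of all genes with a positive and 0.0323% with a negative interaction. In Su(var)3-9, Dyrk3 (0.77 ± 0.16) and asRNA:CR44029 (1.58 ± 0.34) had a positive one and fuss (-1.80 ± 0.32) and Pur-alpha (-1.54 ± 0.31) a negative one, against 0.0968% and 1.74% of all genes. Their adjusted p were 0.0209 to 0.0384, and none of these calls held with each library left out. The number of calls also changed with the library left out, up or down. The share of all genes called in those runs is not given here.

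Over the 6 comparisons with wm4h, 50 of the 102 members passed in none, 41 in 1, 10 in 2 and 1 in 3, which was mav. At least 1 call was thus held by 51% of the members, against 32.9% of all genes tested, and 2 or more by 10.8%, against 5.11%. Repeated calls often differed in direction. Su140 at NC14 and Su(var)3-9 at St7-8 shared 8 called members, of which 1, mav, changed in the same direction. Dyrk3 fell in Su113 and rose in Su(var)3-9 at St7-8. By edgeR, 31 members, or 30.4%, passed neither against wm4h nor between stages, against 43.1% of all genes. Of these 31, 9 belong to a role list. They include ND-49, CaMKII and eIF4G1. Over the 16 libraries ND-49, a complex I subunit, had 83 to 120 CPM. CaMKII, the synaptic calmodulin-dependent kinase, had 74.4 to 120 CPM, and eIF4G1 had 572 to 1080 CPM. DESeq2 did call ND-49 in Su140 at NC14 (adjusted p = 0.007 by DESeq2). The comparisons of a stage share their wm4h libraries. mav was lower than in wm4h in Su140 at both stages and in Su(var)3-9 at St7-8. In Su113 it had 169 and 153 CPM at St7-8, against 243 and 311 in wm4h, which did not pass by edgeR (-0.78 ± 0.22, adjusted p = 0.0795). At NC14 in Su113 it did not pass by edgeR either (-0.84 ± 0.22, adjusted p = 0.109). DESeq2 called mav lower in Su113 at both stages (adjusted p = 0.000741 at NC14 and 0.0239 at St7-8 by DESeq2). Position along the chromosome was described in 3 blocks of 34 members each. In Su140 at NC14 the block nearest the start of the sequence had 0 calls, the middle one 5 and the last 9. Their median log2 fold changes were -0.47, -0.12 and -0.29, so the block without calls had the lowest median. In Su(var)3-9 at St7-8 the blocks had 10, 16 and 17 calls, with medians of 0.52, 0.10 and 0.48. The 73 members with a transposable element in their span had 21 calls higher and 11 lower in Su(var)3-9 at St7-8, and the 29 without one had 5 and 6, with medians of 0.38 and 0.26. In Su140 at NC14 those with an element had 3 calls higher and 9 lower, and those without had 0 and 2. The medians were -0.30 and 0.09. These classes were not matched for gene type, level or length of span. Of all genes tested, 8.94% were called higher and 15.9% lower in Su(var)3-9 at St7-8, and 3.02% and 6.53% in Su140 at NC14.

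Reads of neighbouring genes are uncertain in places. 21 pairs of members share exon bases, 20 of them on opposite strands, and the counter's strand setting is not given in the sources used here. These include zfh2 and Tdg (2325 bp shared), sv and Cals (444 bp), Asator and CG33941 (463 bp), unc-13 and asRNA:CR43425 (3528 bp), unc-13 and asRNA:CR44029 (705 bp), and fuss and lncRNA:sphinx (488 bp). The 1 pair on the same strand is Tdg and lncRNA:CR43958 (412 bp), whose reads cannot be told apart by strand there. Both partners passed in opposite directions in Su(var)3-9 at St7-8 for zfh2 and Tdg, for Tdg and lncRNA:CR43958, for unc-13 and asRNA:CR43425, for unc-13 and asRNA:CR44029, and for fuss and lncRNA:sphinx. CR43361, which shares 1463 bp with unc-13 on the opposite strand, had a log2 fold change of -0.58 there and did not pass. Other pairs passed in the same direction. sv and Cals (1.33 and 1.22) and ATPsynbeta and CG11076 (0.60 and 0.76, 191 bp shared) rose together in Su(var)3-9 at St7-8. sv and Cals also fell together in Su140 at NC14. The part of shared reads in either kind of pair was not tested.

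The genes that encode regulators of chromosome 4 and heterochromatin lie on other chromosomes, and 14 were examined. None passed by edgeR in any of the 3 mutants at NC14 or in Su113 or Su140 at St7-8. DESeq2 called wde lower in Su140 at NC14 and Kdm4A lower in Su140 at St7-8. wde was also called lower in Su140 by edgeR with DESeq2 size factors, in the fit to NC14 alone and with the late embryo covariate, and without Su113 St7-8 replicate 1 2 of the 14, one of them Su(var)3-9, were called lower in Su113 at St7-8. In Su(var)3-9 at St7-8, 0 rose and 5 fell, namely Su(var)3-7 (-0.94 ± 0.18), JIL-1 (-1.06 ± 0.24), ADD1 (-0.63 ± 0.15), Su(var)2-HP2 (-0.60 ± 0.14) and Kdm4A (-0.54 ± 0.15). JIL-1 encodes the kinase known to act with JASPer, Kdm4A a histone demethylase, and the other 3 encode heterochromatin proteins. Pof had 42.7 and 43.7 CPM in Su(var)3-9 at St7-8, against 40.9 and 38.8 in wm4h, and egg, which encodes Eggless, 175 and 241 against 234 and 249. Neither passed there, and the median of the 14 was -0.25 in that comparison. Of all genes tested 15.9% fell there, and 27.3% of those with a mean of at least 10 CPM. The 5 calls numbered 1 without wm4h St7-8 replicate 2, 3 without Su(var)3-9 replicate 1, 2 in a fit to St7-8 alone and 0 with the later zygotic covariate.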

How the data were processed

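RNA-seq counts were used from 16 libraries of pooled embryos. The authors deposited whole-number counts per gene without normalization, in 1 table. The submitters' processing notes name the build dm6 and DESeq2, and the labels' protocols a stranded total RNA kit. The aligner, counter, strand setting and annotation are not given in the sources used here. Symbols, dm6 coordinates, exon lengths and transposable elements were read from Ensembl release 115, where 17626 identifiers were found.

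The filter on low counts (filterByExpr given the 8 groups) took out 5355 genes. TMM factors set the library sizes, and edgeR 4.0.16 in R 4.3.3 with limma 3.58.1 fitted a quasi-likelihood model that holds 1 mean for each of the 8 groups (residual degrees of freedom 8, common biological coefficient of variation 0.401). Tests were two-sided, with Benjamini-Hochberg adjustment over 12398 genes and a threshold of 0.05. CPM use TMM library sizes, levels are means ± SD over 2 libraries, and log2 CPM used a prior count of 2. The limit of 3 counts covers counting error alone. DESeq2 1.42.0 was an alternative. The model was tested on simulated counts. Figures were drawn with matplotlib 3.10.9 and tables made with pandas 2.3.3 and numpy 2.4.6 in python 3.11.15. The members, gene lists and tests were chosen with earlier results of these data known, and lists are described by counts and medians. Named genes were the members of the role lists, those past the threshold (up to 20 per mutant, allele or interaction comparison by adjusted p, or the 3 nearest to it), and the 10 highest and 10 lowest per stage comparison. 1 member that passed is not reported here by name. Other members named were chosen after their values were seen. Replicates differed more at St7-8 than at NC14, while 1 spread per gene served both.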

Additional observations from a re-analysis of the deposited data

Results flagged for a closer look

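For 5 members a mutant's difference from wm4h differed between the stages by the interaction test of edgeR. apolpp had a larger excess in Su140 at St7-8 than at NC14, by 4.86 on the log2 scale (adjusted p = 0.0363), with 4.14 to 5.52 when a library was left out. In Su(var)3-9, fuss had an interaction of -1.80 (adjusted p = 0.0209; -2.12 to -1.39) and Pur-alpha of -1.54 (adjusted p = 0.0322; -1.85 to -1.15). Dyrk3 had 0.77 (adjusted p = 0.0379; 0.69 to 0.83) and asRNA:CR44029 had 1.58 (adjusted p = 0.0384; 1.39 to 1.78). Both St7-8 libraries of each mutant lay on the same side of both wm4h libraries for these genes, while no call held with each library left out. The late embryo markers summed to 48 and 847 CPM in the Su140 St7-8 libraries and the later zygotic genes to 1695 and 1941 CPM in the Su(var)3-9 ones, and their part in these results was not tested.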

How the results depend on the processing

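Of the fold changes of called members under the alternatives, 1065 stayed past the threshold, 768 kept their direction and lost it, and 11 turned their direction. With DESeq2 the calls at NC14 numbered 5 for Su113, 34 for Su140 and 4 for Su(var)3-9. The 34 were 33.3% of the members, against 20.4% of all genes. At St7-8 the calls numbered 16 in Su113 (15.7%, against 11.2%) and 10 in Su140 (9.8%, against 8.08%). There were 4 between stages in wm4h. Between the alleles the calls were 24 at NC14 and 11 at St7-8 (10.8%, against 11.3%). The interactions of Su113, Su140 and Su(var)3-9 had 5, 22 (21.6%, against 15.1%) and 15 (14.7%, against 8.15%) calls. With DESeq2 size factors they numbered 2 in Su113 at each stage and 2 in the Su140 interaction, and the median of all genes moved to 0.07 in Su113 and 0.09 in Su140 at St7-8, 0.13 and 0.19 between stages in Su113 and Su140, and 0.14 and 0.22 in their interactions. In a fit to NC14 alone they numbered 4 in Su113, 32 in Su140 and 26 between the alleles. In a fit to St7-8 alone they were 0 in both Jasper mutants and between the alleles, and 15 in Su(var)3-9. With the later zygotic covariate they were 2 in Su113 and 0 in Su140 at NC14, 0 in Su113 and 2 in Su(var)3-9 at St7-8, and 2 and 0 between the alleles. With the late embryo covariate they were 1 in Su113 at NC14, 0 in Su113 and 1 in Su140 at St7-8, 3 between the alleles at NC14, and 1, 1 and 14 between stages in Su113, Su140 and Su(var)3-9. Without a filter the Su140 interaction had 5 calls. The later zygotic covariate turned zfh2 to 0.59, fd102C to 0.21 and sv to 0.08 in Su140 at NC14, and zfh2 to -0.08 in Su(var)3-9 at St7-8. The late embryo covariate turned CG33978 to -0.18, yellow-h to -0.05, CG1674 to -0.29, Gat to -0.30, bt to -0.08, Actbeta to -0.19 and CG33521 to -0.00 between stages in Su140. The cause was not tested. Both covariates separated several of the groups compared, and there the fit cannot tell their part from that of genotype or stage.

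Leaving out 1 library gave 3 to 6 calls in Su140 at NC14 and, at St7-8, 0 to 12 for Su113, 0 to 6 for Su140 and 11 to 42 for Su(var)3-9, and 0 to 30, 7 to 27 and 9 to 22 between stages in Su113, Su140 and Su(var)3-9, 1 to 2 and 0 to 11 between the alleles at NC14 and St7-8, and 0 to 2, 0 to 29 and 0 to 18 in the interactions of Su113, Su140 and Su(var)3-9. The shares of all genes called with a library left out are not given here. Whether changes in these numbers of calls are particular to chromosome 4 was not tested. The mean share of counts was 1.70%, and 1.54% without gw. Nothing in the labels says whether equal replicate numbers pair libraries across groups. Same-numbered deviations correlated above 0.1 in 3 of 28 pairs of groups, over a range of -0.5042 to 0.3302, which does not settle it. A replicate block gave 6 and 1 calls between the alleles, and 0 and 1 in the Su140 and Su(var)3-9 interactions. It gave 12 in Su140 at NC14 and 40 in Su(var)3-9 at St7-8. Depth was at least 43466130 counts, so the 2 libraries per group, not counting error, limit members above a few CPM.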
